A study of Rattus norvegicus with 18 samples.

Results

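The 200 most highly expressed genes of the rat retina were described, chosen by their level in healthy animals. They are the 200 rows, of 32623 Ensembl gene numbers in the table, with the highest mean FPKM over the 6 libraries of healthy controls (FPKM scales the reads of a gene to the length of its model and to the size of the library, so that levels can be compared between genes). The choice used NC values alone. The level of the members in NC, and every comparison with NC, is therefore selected on the same libraries and is not independent of the choice. DC + Lixi vs DC compares libraries that took no part in the choice, although NC libraries enter the shared estimate of the spread in its test. All 200 members passed the filter on low counts and were tested among 16524 genes.

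Whole retinae came from 18 male Wistar rats that were 8 weeks old at the start, with 6 animals in each group. DC + Lixi animals received intravenous streptozotocin at 35 mg/kg, which destroys the beta cells of the pancreas, and then lixisenatide under the skin at 150 µg/kg on 5 days a week. DC animals received streptozotocin and no lixisenatide, NC animals were age-matched rats without diabetes, and the labels give placebo as the treatment of both. All retinae were taken after 12 weeks. Lixisenatide is an agonist of the GLP-1 receptor, and the comparisons address what diabetes and this drug did to retinal RNA. Streptozotocin gives a diabetes of insulin deficiency, and each library is 1 animal.

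As background, the RNA of a retina is dominated by a small number of genes. In rodents, rod photoreceptors are the most numerous cells, and they continually renew the stacked membranes of their outer segments, which hold the visual pigment and the proteins of the light response. This renewal and the ion pumping of the dark current demand much energy, so that transcripts of mitochondria, of protein synthesis and of phototransduction are usually among the most abundant in this tissue. Which member belongs to which of these classes could not be given. The files do not pair the Ensembl numbers with names, and the RefSeq table matched 0 of them, so no member has a name, a role or a sequence here, and the retinal cell types could not be checked by their markers. Members are called by their rank in NC, and 4 numbers are printed.

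The libraries held 52280272 to 68360387 alignments in DC + Lixi, 49487399 to 59558557 in DC and 55644667 to 62999356 in NC. The RNA integrity number (RIN), which scores how intact the RNA is, was 8.4 to 9.4 in DC + Lixi, 9.2 to 9.5 in DC and 8.6 to 8.9 in NC, so that every DC sample lay above every NC sample. RNA concentrations were 397 to 745 ng/µl in DC + Lixi, 486 to 596 ng/µl in DC and 212 to 541 ng/µl in NC. DC animals 386 and 425 stood apart from the other 16 libraries in several of the highest members, and values that rest on them are given with and without them. In whole tissue, fewer cells of a type and less RNA per cell cannot be told apart.

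Levels fell steeply along the ranks. The member of rank 1 had a lowest, median and highest value of 14230, 15592 and 16262 FPKM in DC + Lixi, 13282, 15282 and 16984 FPKM in DC and 11236, 14964 and 16670 FPKM in NC. The 3 groups overlapped in this member. Its NC mean was 14684 ± 1848 FPKM (SD, n = 6), against 13803 ± 973 FPKM for rank 2, 11331 ± 865 FPKM for rank 3, 9776 ± 595 FPKM for rank 4 and 9504 ± 747 FPKM for rank 5. Ranks 1 and 2 lay within 1 SD of each other, as did ranks 4 and 5. In NC, 27 genes averaged 1000 FPKM or more and 63 averaged 500 FPKM or more. Rank 1 was 62.3 times as high as rank 200, and 8804 of the 32623 genes were listed at 0 in all NC libraries.

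The end of the list was not a natural boundary. The last 5 members averaged 236.9, 236.9, 236.2, 235.8 and 235.6 FPKM in NC, and the first 5 genes outside averaged 235.4, 233.1, 232.5, 232.5 and 232.0 FPKM. Rank 200 was 0.0811% above the next gene. The SD over the NC animals was 8.94 to 16.3 FPKM in these 5 members, so the order there is within the spread between animals.

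The 200 members held a large part of the summed FPKM of each library. Their share was 39.54%, 40.12%, 40.05%, 39.13%, 39.39% and 38.61% in the DC + Lixi animals 388, 401, 403, 418, 419 and 428. It was 40.22%, 37.57%, 37.64%, 38.23%, 40.36% and 36.59% in the DC animals 386, 390, 396, 407, 425 and 430, and 37.92%, 37.05%, 35.72%, 39.78%, 39.91% and 38.60% in the NC animals 431, 432, 433, 437, 438 and 439. The groups overlapped, and the 2 highest DC animals were 386 and 425. The mean share was 39.5 ± 0.573% in DC + Lixi, 38.4 ± 1.53% in DC and 38.2 ± 1.62% in NC (SD, n = 6 each). Without animals 386 and 425, the DC mean was 37.5 ± 0.679% (SD, n = 4). DC + Lixi then exceeded DC by 1.96 points, against 1.04 with all animals, and DC minus NC was -0.65 points, against 0.27. These shares are a description of a list chosen by level in NC, and no test was made on them.

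**Figure D1:**
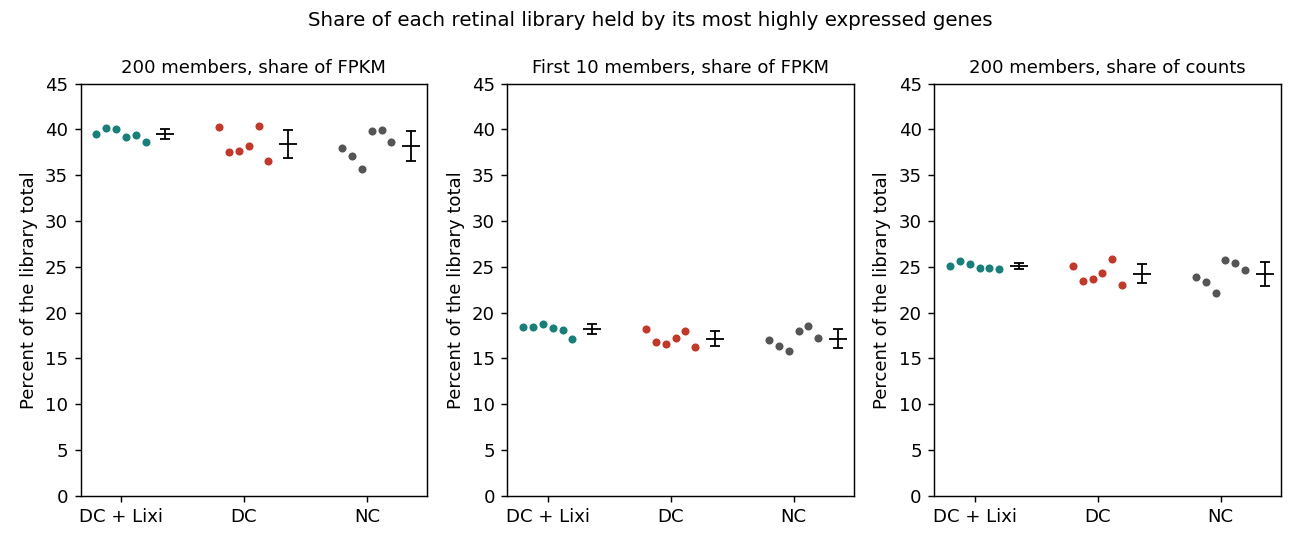
Percent of each library's total, 1 point per animal, with the mean and SD of 6 animals in black, for the 200 members and the first 10 members as a share of summed FPKM and for the 200 members as a share of summed counts. DC + Lixi animals lie between 38.6% and 40.1% of FPKM for the 200 members, within the range of 35.7% to 39.9% in NC or just above it.

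Most of that share sat at the top. The first 10 members alone held 18.2 ± 0.552% of the summed FPKM in DC + Lixi, 17.2 ± 0.804% in DC and 17.1 ± 1.01% in NC, and the first 50 held 29.2 ± 0.656% in DC + Lixi, 28.2 ± 1.66% in DC and 27.8 ± 1.51% in NC. The member of rank 1 held 3.07 ± 0.197% in DC + Lixi, 3.03 ± 0.310% in DC and 2.98 ± 0.348% in NC. The last 100 members together held 5.72 ± 0.0731% in DC + Lixi, 5.66 ± 0.0945% in DC and 5.80 ± 0.0468% in NC, so the spread between animals came mainly from the first 100 members. Of the summed counts, in which a long gene weighs more, the 200 members held 25.1 ± 0.330% in DC + Lixi, 24.2 ± 1.06% in DC and 24.2 ± 1.34% in NC. NC animal 433 had the lowest share of FPKM of all 18 animals, and it needed 703 genes to reach 50% of its FPKM, against 498 to 636 genes in the other 17.

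Members had short gene models. The length that a count and its FPKM imply together was 69 to 6991 bases in the members, with a median of 1444 bases, against a median of 2137 bases over all genes tested. It was under 1000 bases in 59 members (29.5%) and in 14.4% of the genes tested. The first 20 members had a median of 890 bases. FPKM divides by this length, so the choice of members used it in part. By counts scaled to library size alone, which do not divide by length, 119 of the 200 would have been chosen. Rank 15, at 69 bases, and rank 7, at 204 bases, are the shortest of the first 20 members, and the reads were 50 bases long. Rank 15 had 2522 to 3498 FPKM in DC + Lixi, 2807 to 3411 FPKM in DC and 2574 to 3400 FPKM in NC.

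Many members had fractional counts. In 91 of the 200 members (45.5%) the deposited estimated count was not a whole number in at least 1 library, against 32.6% of the genes tested. In 67 members this held in every library that had a count. A fraction can arise where a read is divided between features, and the levels of these members are uncertain to that extent. The count was whole in every library that had one for 109 members. Of the first 5 members none had a fractional count.

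Members varied little between animals of a group. The coefficient of variation had a median of 5.98% in DC + Lixi, 6.83% in DC and 6.97% in NC, against 9.51% in DC + Lixi, 9.85% in DC and 9.35% in NC over all genes tested. Among NC animals it was 1.17% to 28.4% in the members, under 5% in 66 of them and over 15% in 18. Genes of intermediate level in NC (10 to 100 FPKM) had a median of 6.04%, so a low variation was not particular to the members. The lowest value belonged to rank 166, and the highest to ranks 71, 145, 43, 24 and 110.

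Ranks 24 and 34 moved together between animals. Rank 24 had 833 FPKM in DC + Lixi animal 388 and 1159 to 1643 FPKM in the 5 others, 1103 to 1735 FPKM in DC, and 831 FPKM in NC animal 431 with 1125 to 1694 FPKM in the 5 others. Rank 34 had 591 FPKM in animal 388, 826 to 1080 FPKM in the other DC + Lixi animals, 823 to 1047 FPKM in DC, 583 FPKM in animal 431 and 826 to 1156 FPKM in the other NC animals. In both members, animals 388 and 431 were the 2 lowest of 18.

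The order of the members was largely kept in the diabetic groups. Of the 200 members, 190 were also among the 200 highest genes by the DC + Lixi mean and 185 by the DC mean. The first 10 members were the first 10 genes in DC + Lixi, and 9 of them were in DC. Of the 10 members that left the list in DC + Lixi, 9 came from the last 20 ranks, and of the 15 that left it in DC, 7 did. Within 10 places of their NC rank were 150 members by the DC + Lixi mean and 133 by the DC mean. Among genes that entered, the one of NC rank 326 reached rank 119 in DC + Lixi and rank 57 in DC, with means of 326 FPKM in DC + Lixi, 531 FPKM in DC and 161 FPKM in NC. The gene of NC rank 1023 reached rank 111 in DC, with 343 FPKM, against 71.4 FPKM in NC. In DC, animal 425 had 150 FPKM and the others 342 to 483 FPKM. In DC + Lixi this gene averaged 184 FPKM, with 64.7 to 326 FPKM over the animals.

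**Figure D2:**
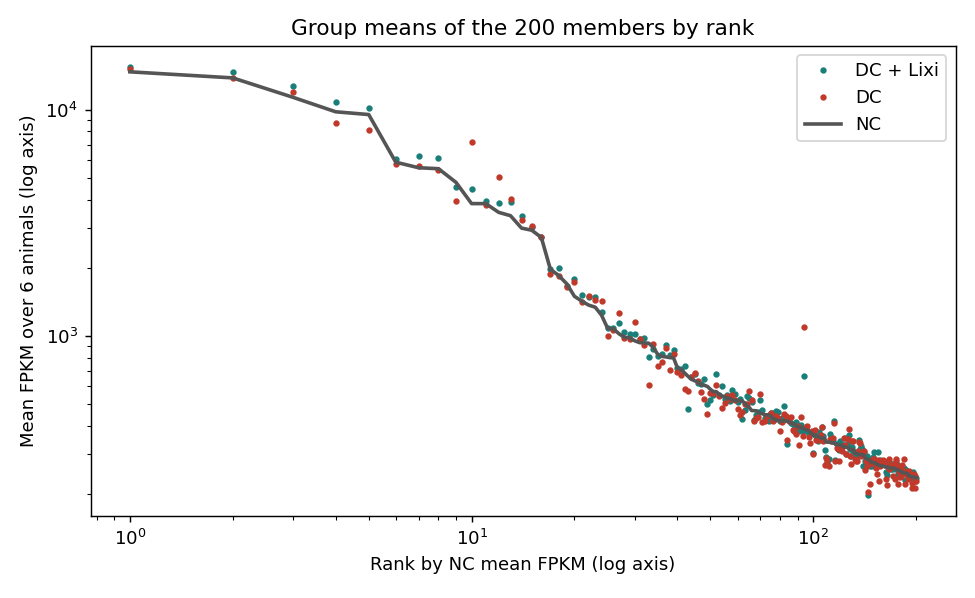
Mean FPKM over 6 animals (log axis) against rank by NC mean (log axis) for the 200 members, with NC as a line and DC + Lixi and DC as points. Most points lie near the line over its 62.3-fold range. Rank 94, at 661 FPKM in DC + Lixi and 1089 FPKM in DC, and ranks 10 and 12 in DC lie above it, and rank 33 in DC, rank 43 in DC + Lixi and rank 145 in both lie below it.

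The comparison of DC + Lixi with DC asks what lixisenatide did to the members in diabetic animals, on libraries that did not choose them. No member was called (adjusted p under 0.05, edgeR), nor was any of the 16524 genes. At an unadjusted p under 0.05, 40 members were higher in DC + Lixi, where 5.81% of all genes tested were, and 4 members were lower, where 6.58% of all genes were. The 40 are 20% of the members. The median log2 fold change was 0.065 over the members and -0.0047 over all genes tested. A positive value was found in 148 members (74%), against 48.4% of all genes tested, and the absolute change was under 0.2 in 180 members. Members share their libraries and many vary together, so these counts describe the list and are no test of it. In RIN, only DC + Lixi animal 403 (9.4) lay within the DC range of 9.2 to 9.5, and the other DC + Lixi animals had 9.0 or less. The part of RNA quality in these counts can therefore hardly be told apart from that of the group. With RIN as a covariate, 20 members were higher and 3 lower at an unadjusted p under 0.05, with a median of 0.04. In that fit 3.20% of all genes tested were higher and 3.56% lower. Scaled by total counts only, the numbers were 31 and 10, with a median of 0.04 over the members and -0.03 over all genes. Of all genes tested, 3.03% were then higher and 9.74% lower.

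The members with the smallest p-values in that comparison were ranks 42, 54, 48, 4 and 5, all higher in DC + Lixi. Rank 42 had a lowest, median and highest value of 652, 727 and 833 FPKM in DC + Lixi and 452, 607 and 636 FPKM in DC. The groups did not overlap, and the log2 fold change was 0.38 (SE, the standard error, 0.08, adjusted p = 0.189, edgeR). Rank 4 had 10292, 10651 and 11577 FPKM in DC + Lixi and 6338, 9311 and 10280 FPKM in DC, again without overlap. Its log2 fold change was 0.35 (SE 0.09, adjusted p = 0.221, edgeR). Rank 5 had 9484, 10132 and 10810 FPKM in DC + Lixi and 6234, 8867 and 9410 FPKM in DC, with a log2 fold change of 0.34 (SE 0.09, adjusted p = 0.221, edgeR). In all of ranks 4, 5 and 42 the DC animals 386 and 425 were the lowest of 18, and without both the log2 fold changes were 0.21, 0.20 and 0.29 (adjusted p = 0.109, 0.159 and 0.101, edgeR). DESeq2 called 6 members in this comparison, all higher, namely ranks 4, 5, 42, 48, 54 and 128 (adjusted p 0.00542 to 0.0487), and 92 of all genes, of which 54 were higher, whereas limma-voom called 0 members.

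**Figure D3:**
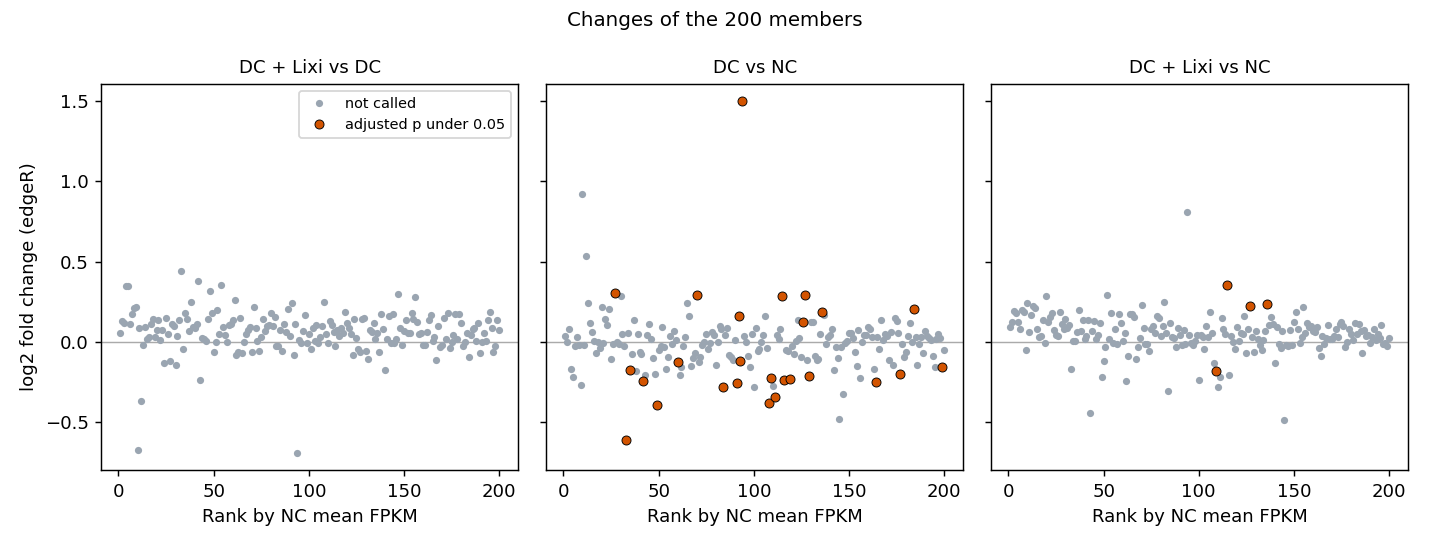
log2 fold change of each of the 200 members (edgeR) against its rank by NC mean, in DC + Lixi vs DC, DC vs NC and DC + Lixi vs NC, with called members in orange. No member is called in DC + Lixi vs DC, and rank 94 stands highest in DC vs NC at 1.50.

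In diabetic animals without the drug, 9 members were higher (4.5%) and 17 were lower (8.5%) than in NC, where 9.36% of all genes tested were higher and 6.69% were lower (DC vs NC, adjusted p under 0.05, edgeR). Read against these backgrounds, the share of members that were higher was smaller and the share that were lower was similar. NC libraries both chose the members and stand on 1 side of this comparison. Among the 200 genes chosen by the DC mean, 20 were higher and 14 lower. The choice by the DC + Lixi mean gave 15 higher and 16 lower, and that over all 18 libraries gave 14 and 16. Changes were small, with a median absolute log2 fold change of 0.08 over the members and 0.12 over all genes tested. None of the first 20 members was called. RIN separated DC from NC without overlap, so the part of RNA quality in these calls cannot be told apart from that of the group. With it as a covariate, 0 members and 0 of all genes were called by edgeR. An unadjusted p under 0.05 was found in 22 of the 200 members and in 2402 of the 16524 genes tested, so the members did not stand out. Rank 94 then had an adjusted p of 0.104 (edgeR) at a log2 fold change of 1.51. All 26 members kept the sign of their change, and the ratio of the log2 fold change with RIN to that without had a median of 1.00 over them. It was lowest in ranks 91 (0.444), 119 (0.490) and 84 (0.610). The median SE over the 26 was 0.11 with RIN and 0.07 without it.

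Rank 94 (ENSRNOG00000016460) rose most. Its lowest, median and highest values were 729, 1167 and 1261 FPKM in DC and 346, 396 and 425 FPKM in NC. The groups did not overlap, and it rose 2.83-fold in DC, a log2 fold change of 1.50 (SE 0.24, adjusted p = 0.00149, edgeR). The DC + Lixi animals did not form 1 level. Animals 388, 403 and 428 had 872, 882 and 1077 FPKM, within the DC range, and animals 401, 418 and 419 had 377, 386 and 374 FPKM, within the NC range. DC + Lixi averaged 661 ± 318 FPKM and was called neither against DC (log2 fold change -0.69, adjusted p = 0.282, edgeR) nor against NC (0.81, adjusted p = 0.0831, edgeR).

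Rank 127 (ENSRNOG00000034254) had 364, 379 and 439 FPKM in DC and 301, 319 and 328 FPKM in NC as its lowest, median and highest values. These ranges did not overlap, and the log2 fold change was 0.29 (SE 0.05, adjusted p = 0.00164, edgeR). Its counts were fractional in all 18 libraries. Rank 115 had 381, 397 and 477 FPKM in DC and 312, 333 and 367 FPKM in NC, also without overlap, with a log2 fold change of 0.28 (adjusted p = 0.00497, edgeR). The other members that rose were ranks 27, 70, 92, 126, 136 and 184, by 0.12 to 0.31 on the log2 scale. Rank 27, the highest of them in level, had 1031, 1252 and 1447 FPKM in DC and 766, 1023 and 1240 FPKM in NC, and its groups overlapped.

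Among the members that fell, rank 111 (ENSRNOG00000018430) had the smallest p. Its lowest, median and highest values were 229, 269.5 and 304 FPKM in DC and 321, 337 and 362 FPKM in NC. The ranges did not overlap, and the log2 fold change was -0.35 (SE 0.07, adjusted p = 0.00353, edgeR). Rank 109 (ENSRNOG00000009629) had 282, 288 and 293 FPKM in DC and 319, 341 and 365 FPKM in NC, again without overlap, and a log2 fold change of -0.23 (SE 0.05, adjusted p = 0.00378, edgeR). Rank 108 had 218, 266 and 321 FPKM in DC and 332, 343 and 382 FPKM in NC, with a log2 fold change of -0.38 (adjusted p = 0.00713, edgeR). All 6 DC animals lay below all 6 NC animals in these 3 members.

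Rank 33 fell most, to 546, 600.1 and 671 FPKM in DC, against 879, 923 and 964 FPKM in NC. The log2 fold change was -0.61 (SE 0.14, adjusted p = 0.00996, edgeR), without overlap. In DC + Lixi, animals 388, 403 and 428 had 547, 583 and 626 FPKM, within the DC range, and animals 401, 418 and 419 had 1009, 1008 and 1060 FPKM, above every NC animal. These are the animals that lay in the DC range and in the NC range for rank 94, and in the gene of NC rank 326 they had 498, 467 and 556 FPKM against 130, 150 and 156 FPKM. In that gene the DC animals had 346 to 614 FPKM and the NC animals 147 to 172 FPKM. The split was noticed in the values, no label gives it, and it was not tested.

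The other members that fell were ranks 35, 42, 49, 60, 84, 91, 93, 116, 119, 129, 164, 177 and 199, by -0.12 to -0.40 on the log2 scale. Rank 49 had 390, 436 and 565 FPKM in DC and 543, 599 and 639 FPKM in NC, with some overlap through DC animal 425. Rank 199 fell to 202, 211 and 223 FPKM in DC, against 221, 235 and 247 FPKM in NC. Of the 26 members called, 11 were called in each of the 18 fits that left out 1 library, namely ranks 33, 49, 70, 94, 108, 109, 111, 115, 127, 184 and 199. The number called was 14 to 35 over those fits. It moved by more than 1.5 times without DC animals 390 (16) and 430 (14) and without NC animals 432 (15) and 439 (14). The shares of all genes called in those fits are not given here, so these numbers are not read as changes particular to the members.

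**Figure D4:**
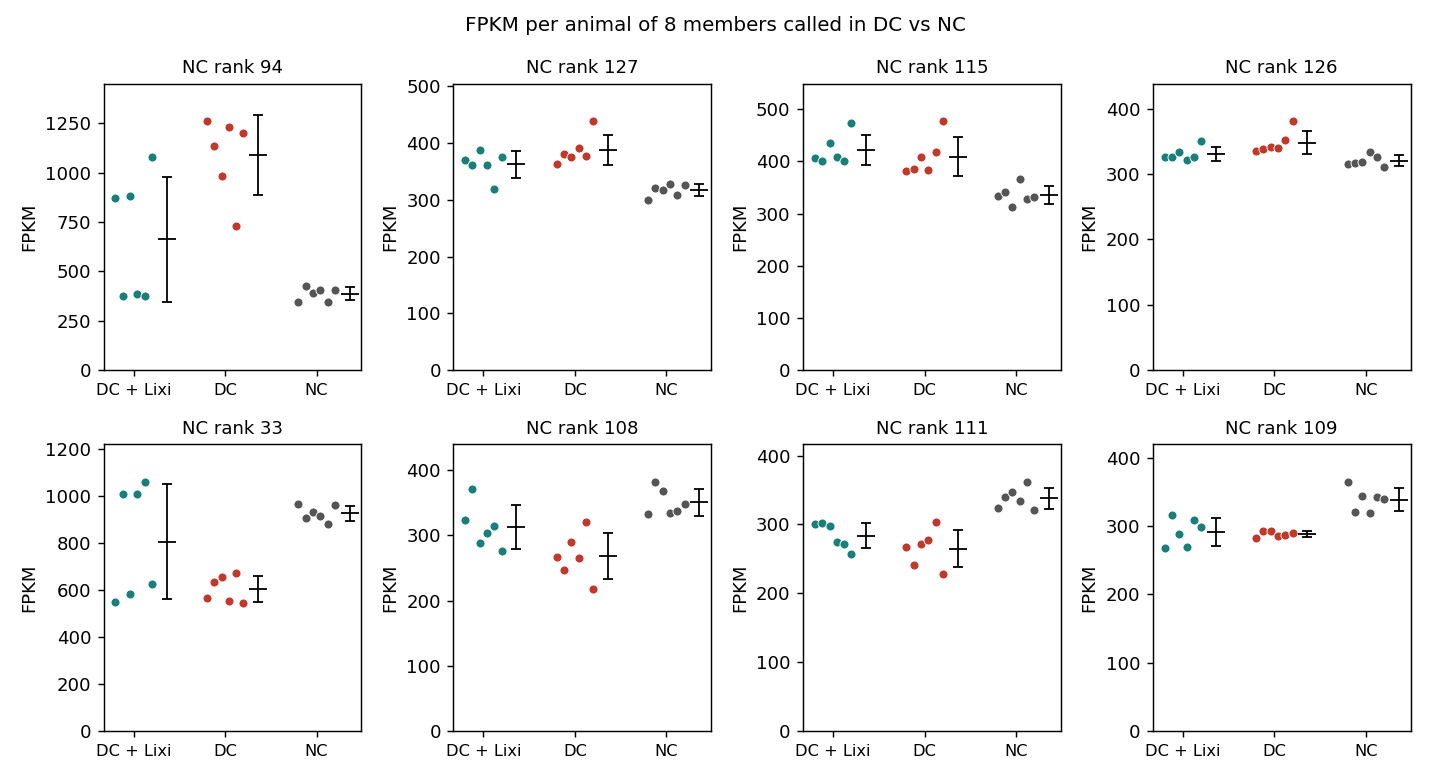
FPKM per animal (points), with the mean and SD of 6 animals in black, in DC + Lixi, DC and NC. Ranks 94, 127, 115 and 126 rose and ranks 33, 108, 111 and 109 fell in DC vs NC. Only called members without overlap between DC and NC were drawn, those with the largest change in each direction. Called members with overlap, such as ranks 27, 49 and 70, are not shown. In rank 94 the DC + Lixi animals, at 374 to 1077 FPKM, fall into values within the DC range and values within the NC range. In rank 33, at 547 to 1060 FPKM, they fall into values within the DC range and values above every NC animal.

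In diabetic animals given lixisenatide, 3 members were higher (1.5%) and 1 was lower (0.5%) than in NC, where 0.95% of all genes tested were higher and 0.587% were lower (edgeR, adjusted p under 0.05). With counts this small, the members were close to the background. This comparison shares its NC libraries with DC vs NC and with the choice of members. Rank 115 had 401, 407 and 474 FPKM in DC + Lixi and 312, 333 and 367 FPKM in NC, without overlap, and a log2 fold change of 0.35 (SE 0.06, adjusted p = 0.0147, edgeR). It was called in each of the 18 fits without 1 library and in all 11 other settings, and it had 18 libraries with fractional counts. Rank 136 had 324, 344 and 374 FPKM in DC + Lixi and 263, 304 and 321 FPKM in NC, with a log2 fold change of 0.23 (adjusted p = 0.0447, edgeR). Rank 127 had 320, 366 and 388 FPKM in DC + Lixi, overlapping NC at 301, 319 and 328 FPKM, with 0.22 (adjusted p = 0.0353, edgeR).

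Rank 109 was the member that fell in DC + Lixi vs NC. It had 268, 293 and 317 FPKM in DC + Lixi, against 319, 341 and 365 FPKM in NC, without overlap, and a log2 fold change of -0.19 (SE 0.05, adjusted p = 0.0461, edgeR). It was called in 4 of the 18 fits that left out 1 library, rank 136 in 9 and rank 127 in 10. The number of members called was 1 to 7 over those fits. It was 1 without DC + Lixi animal 388, 403 or 428 or without NC animal 431, 432, 433, 438 or 439, 2 without DC animal 386, and 7 without DC + Lixi animal 401 or 419. Total counts only gave 3 higher and 4 lower, and RLE size factors gave 3 higher and 0 lower. The shares of all genes called in those settings are not given here. The median log2 fold change was 0.052 over the members and 0.0017 over all genes tested, and 148 members (74%) had a positive value, against 50.5% of all genes.

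The highest members were not level among the DC animals. In rank 10, animals 386 and 425 had 14603 and 13199 FPKM, the other 4 DC animals 3702 to 4065 FPKM, and the 16 other libraries together 3589 to 5074 FPKM. In these 2 animals it stood at the level of ranks 1 to 3. Rank 12 had 8396 and 7754 FPKM in them and 3413 to 3672 FPKM in the other DC animals, and rank 13 had 5423 and 4932 FPKM against 3043 to 3613 FPKM. Ranks 3 and 22 were also above all 16 other libraries, and ranks 4, 5, 42 and 54 were below them. Rank 4 had 7250 and 6338 FPKM in animals 386 and 425, against 9277 to 10280 FPKM in the other DC animals. Rank 5 had 6354 and 6234 FPKM, against 8618 to 9410 FPKM.

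In all, both animals lay above every other library in 5 members (2.5%) and below it in 4 (2%), which compares with 0.278% and 0.454% of all genes tested. This pair was picked after its values were seen, and the counts are a description. Of the first 25 members, 7 (28%) were beyond the other libraries. Ratios of the mean of the pair to that of the other DC animals were 3.60 for rank 10, 2.28 for rank 12, 1.52 for rank 13, 0.703 for rank 4 and 0.693 for rank 5. RIN was 9.5 in animal 386 and 9.2 in animal 425, the highest and the lowest of the DC group. Its part in the values of these animals was not tested. With RIN as a covariate, the log2 fold changes in DC vs NC were 0.72 for rank 10, 0.31 for rank 12, -0.25 for rank 4 and -0.32 for rank 5. Without it they were 0.92, 0.53, -0.17 and -0.22.

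Comparisons that include DC depended on this pair in several of these members, and not always in the same direction. In DC + Lixi vs DC, the log2 fold change of rank 3 was 0.11 (adjusted p = 0.629, edgeR) and 0.29 (adjusted p = 0.0636, edgeR) without the pair. Those of ranks 4, 5 and 42 became smaller without it, with smaller adjusted p-values, as given above. Rank 10 had a log2 fold change of 0.92 in DC vs NC (SE 0.31, adjusted p = 0.0517, edgeR) and -0.0014 (adjusted p = 0.993) without the pair. In DC + Lixi vs DC it had -0.68 (adjusted p = 0.385, edgeR) and 0.24 (adjusted p = 0.131) without the pair. Rank 12 had 0.53 in DC vs NC (adjusted p = 0.0884, edgeR) and 0.0020 without it. Rank 42, called lower in DC vs NC at -0.25 (adjusted p = 0.0472, edgeR), was at -0.15 (adjusted p = 0.179) without the pair, whereas rank 94 kept 1.55 and rank 33 kept -0.64. Without the pair, 7 members were higher and 22 lower in DC vs NC, an alternative chosen after seeing the data. The share of all genes called in that fit is not given here, so these counts cannot be read as a tilt of the members.

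**Figure D5:**
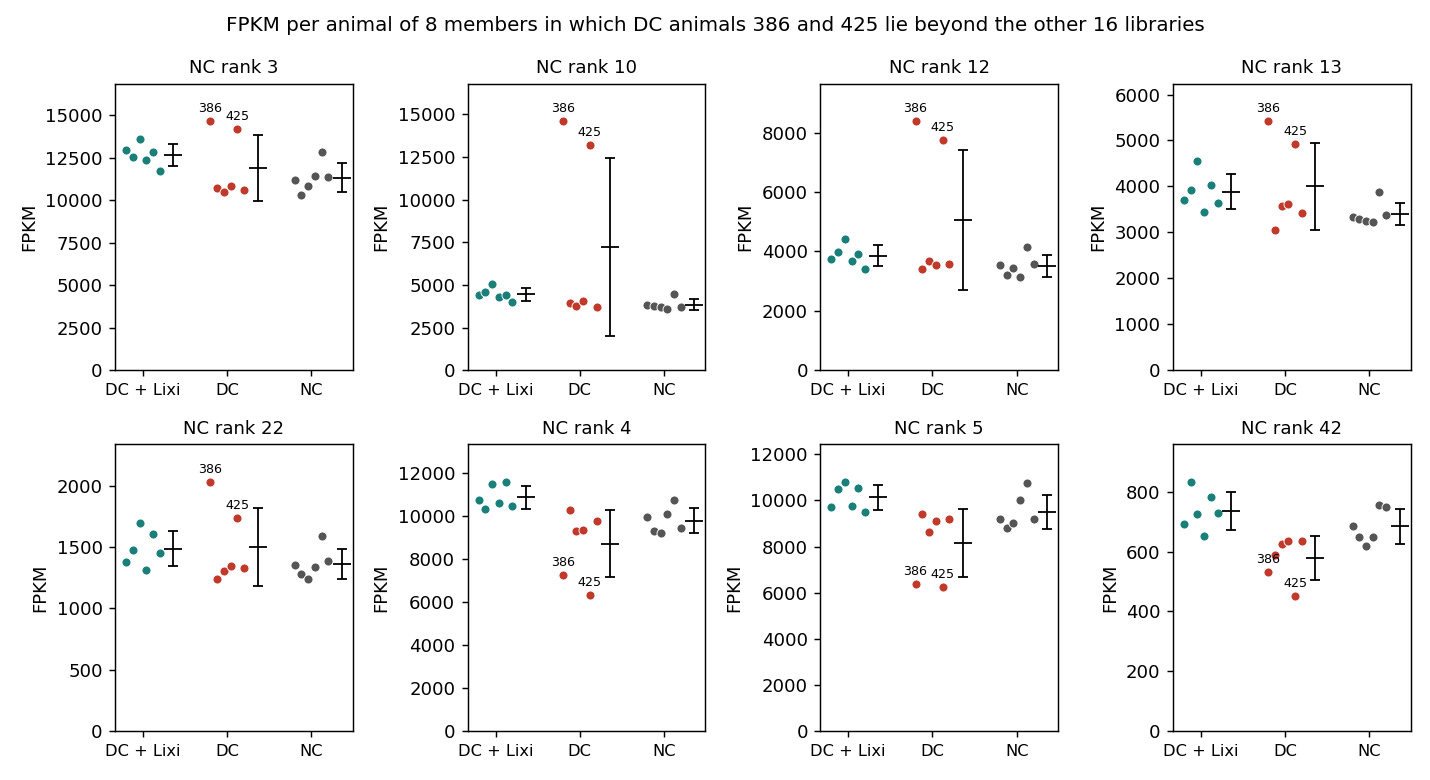
FPKM per animal (points), with the mean and SD of 6 animals in black, in DC + Lixi, DC and NC for ranks 3, 10, 12, 13 and 22, in which DC animals 386 and 425 (labelled) lie above the other 16 libraries, and ranks 4, 5 and 42, in which they lie below. Rank 10 reaches 14603 FPKM in animal 386 and stays at 5074 FPKM or less in the 16 others.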

How the data were processed

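Each retina gave 1 library of mRNA, read single-end at 50 bases. Alignment to a rat gene model, quantification and normalization were done by the authors in Array Studio 10.1.3.3, and the submitters' processing notes name DESeq2. Which aligner, build and annotation were used is not given in the sources used here, and positions in the genome are left out. The deposited estimated counts are raw, and fractions occur in 26.5% of the values above 0. In the deposited FPKM values, a count is divided by the length of the gene model and by the library's summed counts. A sheet deposited with them gives per sample a count of alignments, RIN (the RNA integrity score), the RNA concentration and the absorbance ratio of 260 to 280 nm, which was not used further.

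The count table is empty in 46805 cells, of which 42724 have an FPKM of 0. A count was restored from FPKM in 1504 cells, 7 of them in members and all 7 in DC + Lixi animal 401, and 2577 others were set to 0. Counts were rounded and tested in R 4.3.3 with edgeR 4.0.16 (filterByExpr, TMM factors 0.967 to 1.046, quasi-likelihood test, all 18 libraries in 1 fit with 15 residual degrees of freedom), with Benjamini-Hochberg adjustment over the 16524 genes. Alternatives were RLE size factors, total counts, DESeq2 1.42.0, no filter, limma-voom (limma 3.58.1), limma on log2(FPKM + 1) and log2(FPKM + 0.1) with a mean FPKM of at least 1 or without a filter, the 2 groups compared alone, RIN as a covariate, missing counts left at 0, other choices of members, and each library left out. The steps were tested on simulated data. Summed counts were 28311699 to 39131683 per library.

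The members and the rules for naming them were chosen with earlier results of these data known. Members described in detail are the first 20, for each comparison the 10 called members with the highest NC mean and the 10 with the largest change in each direction, the last 5 members, the next 5 genes and the 5 with the highest coefficient of variation in NC. Gene numbers are printed for the 2 called members with the smallest p in each direction. Ranks 22, 34, 48, 54, 100, 326 and 1023 were added after their values were seen. Lists of genes by symbol could not be applied.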

Additional observations from a re-analysis of the deposited data

Results flagged for a closer look

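Values of the members described in detail, and shares, were screened for a single animal far from the 5 others of its group (Dixon's test), over 171 sets of 6 values, of which 14 met it. By chance about 1 in 20 sets does where the sets are chosen without regard to their values. Some members were described in detail for a high coefficient of variation in NC or because they were called. The rate therefore cannot be used to judge the 14. In the first 20 members, DC + Lixi animal 428 had 5534 FPKM in rank 6 (others 6097 to 6226), DC animal 386 had 6497 FPKM in rank 7 (others 5204 to 5627), and DC + Lixi animal 403 had 3927 FPKM in rank 9 (others 4512 to 4855). NC animal 438 was high in 3 members, with 4459 FPKM in rank 10 (others 3589 to 3812), 3873 FPKM in rank 13 (others 3226 to 3377) and 2175 FPKM in rank 18 (others 1673 to 1859). DC animal 386 had 2170 FPKM in rank 18 (others 1677 to 1832).

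Among later members, DC animal 386 had 280.3 FPKM in rank 71 (others 418 to 456), DC + Lixi animal 403 had 330.4 FPKM in rank 91 (others 376 to 401) and NC animal 439 had 185.7 FPKM in rank 110 (others 352 to 379.5). DC animal 425 had 320.9 FPKM in rank 119 (others 260.4 to 281), DC animal 430 had 381 FPKM in rank 126 (others 335 to 352) and 439 FPKM in rank 127 (others 364.1 to 391.98), and DC + Lixi animal 428 had 252 FPKM in rank 197 (others 220.5 to 230.3). Ranks 119, 126 and 127, and rank 91, whose flag is in DC + Lixi, were called in DC vs NC. No cause was tested for these values.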

How the results depend on the processing

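The number of members called depended on the setting more than their direction did. In DC + Lixi vs DC it was 0 (edgeR) in all settings except DESeq2, with 6, and 0 to 0 without 1 library. In DC vs NC it was 26, 0 with RIN as a covariate, and 14 to 35 without 1 library. In DC + Lixi vs NC it was 4, with 12 by DESeq2, 7 with total counts only and with limma on log2(FPKM + 1) or log2(FPKM + 0.1), 2 without a filter on low counts, with limma-voom, with limma on log2(FPKM + 1) without a filter or with only the 2 groups compared, 1 with RIN as a covariate, and 1 to 7 without 1 library. The number of all genes called moved too, from 254 to 45 with RIN as a covariate in DC + Lixi vs NC. For most other settings it is not given here, so these counts are not read as changes particular to the members. The cause was not tested. No named member reversed a called direction.

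The share of summed FPKM differed by 1.04 points in DC + Lixi vs DC (0.669 to 1.42 without 1 library), 0.27 in DC vs NC (-0.215 to 0.643) and 1.31 in DC + Lixi vs NC (0.823 to 1.66). Without DC animals 386 and 425 together, chosen after seeing the data, it was 1.96 in DC + Lixi vs DC and turned to -0.65 in DC vs NC. All moved by less than the SD between animals in the settings run. The alternative without mitochondrially encoded genes was not run, since no gene could be named. No paired analysis was possible because the animal numbers differ between the groups. Nothing in the sources says that animals were pooled, and p-values set a group difference against the spread between these animals.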

Other observations

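The members of ranks 100 and 110 each took 2 separate levels in these retinae, with the same animals at each level. Rank 110 had 186 to 207 FPKM in 7 animals, 3 of DC + Lixi, 3 of DC and 1 of NC, and 325 to 380 FPKM in the 11 others, with none in between. Rank 100 had 208 to 219 FPKM in the same 7 animals and 374 to 415 FPKM in the 11 others. Against NC, its log2 fold change was -0.24 in DC + Lixi and -0.29 in DC (adjusted p = 0.620 and 0.436, edgeR). For rank 110, the log2 fold change was -0.28 in DC + Lixi and -0.27 in DC (adjusted p = 0.510 and 0.423, edgeR). The sets were noticed in the values and are not groups of the study.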
